A study of Mus musculus with 3 samples.

Results

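Connexins are membrane proteins that assemble into hexameric hemichannels, and hemichannels of neighbouring cells dock to form gap junctions that pass ions and small messengers such as cAMP and calcium-mobilising signals. In the renal arterioles they join renin cells to each other, to the endothelium and to smooth muscle and mesangial cells. Connexin 40, the Gja5 product, is known from mouse genetics to be needed for the normal position of renin cells and for the restraint of renin release by pressure and angiotensin II. The genes described here are Gja5 and Gja4 (connexins 40 and 37 of arteriolar cells), Gjc1 (connexin 45 of smooth muscle and mesangial cells), Gjb2 (connexin 26, best known in liver and inner ear epithelium) and Gjd2 (connexin 36 of neurons and pancreatic beta cells). They were found by gene symbol, which gave 5 probe sets for the 5 genes among 35557 probe sets and 19938 named genes. Each gene had 1 probe set, so there was no other probe set of the same gene to compare it with, and no probe set with several symbols named any of the 5.

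The samples were cells carrying yellow fluorescent protein (YFP) sorted by flow cytometry from digested kidney cortex of adult male Ren1c-YFP mice, a transgenic line in which the renin gene's promoter drives the reporter; the strain is unspecified in the labels. All mice had drunk captopril at 0.5 mg/ml, which blocks the enzyme that makes angiotensin II, and eaten low-salt chow for 2 weeks. There is 1 group of 3 arrays (replicates 2, 4 and 5) and no comparison with untreated mice or with cells lacking YFP was made, so every value is a level and none is an effect of captopril, salt or sorting. Samples were not pooled, but separate animals are not stated outright, and a p-value here covers the spread of these 3 samples alone, which may be technical. Values are log2 signals of single-colour Affymetrix arrays. The array's background level was the 95th percentile of the log2 signals of its 1027 olfactory receptor genes (6.20, 6.32 and 6.50 in replicates 2, 4 and 5), and a gene's height is its log2 signal minus that level. All 7 measured renin cell markers were above background, while Akr1b7, Adora1, Adrb1 and renin itself (Ren1, Ren2) were not used here. Also above background were 10 of 12 smooth muscle, 9 of 16 endothelial, 16 of 16 proximal tubule and 8 of 8 thick ascending limb markers, beside 37.3% of all genes. The same held for 9 of 10 pericyte and mesangial, 5 of 7 distal and connecting tubule, 8 of 9 principal cell and 8 of 8 intercalated cell markers. Of podocyte markers 1 of 6 passed, of macrophage markers 3 of 10 and of lymphocyte markers 0 of 9. A signal does not say which cells it came from, and in such samples fewer cells of a type and less RNA per cell cannot be told apart.

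The sequences just before the transcription start are shown for the connexin gene that passed against every background level tried (Gja5) and for those with the largest differences between arrays (Gja4 and Gjb2). They are the 250 bases upstream of the RefSeq start given for each gene in build GRCm38.p6, read 5′ to 3′ on the gene's strand. The probe set of Gja5 lists 2 RefSeq mRNAs, and other starts were not examined. By symbol, 4 of the 5 genes matched the table (not Gjc1). Capitals mark every match, on either strand, to GGGCGG, the GC box bound by Sp1-type factors, and to TGACG, the core of a cAMP response element.
Gja5, chr3:97032152-97032401, plus strand: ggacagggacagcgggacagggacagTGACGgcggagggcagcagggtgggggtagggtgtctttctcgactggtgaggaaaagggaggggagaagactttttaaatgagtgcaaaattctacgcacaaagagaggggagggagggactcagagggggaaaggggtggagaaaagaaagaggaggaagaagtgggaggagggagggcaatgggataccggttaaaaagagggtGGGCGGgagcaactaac
Gja4, chr4:127314040-127314289, minus strand: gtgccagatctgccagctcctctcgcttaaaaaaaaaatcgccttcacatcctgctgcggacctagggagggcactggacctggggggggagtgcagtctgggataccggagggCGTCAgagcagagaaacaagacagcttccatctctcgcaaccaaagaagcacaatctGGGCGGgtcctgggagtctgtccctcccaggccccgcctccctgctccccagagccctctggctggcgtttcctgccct
Gjb2, chr14:57104703-57104952, minus strand: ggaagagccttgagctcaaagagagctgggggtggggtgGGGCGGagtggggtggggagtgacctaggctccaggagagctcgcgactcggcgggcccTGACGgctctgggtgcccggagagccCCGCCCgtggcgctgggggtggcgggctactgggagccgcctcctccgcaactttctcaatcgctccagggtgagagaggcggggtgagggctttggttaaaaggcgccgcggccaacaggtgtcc
Each of the 3 windows held TGACG or its complement once, starting 224 bases before the start in Gja5, 136 in Gja4 and 152 in Gjb2. GGGCGG or its complement stood once in Gja5 (17 bases before the start) and once in Gja4 (79), and 2 times in Gjb2 (211 and 126). The window of Gjd2, a gene under background here, also held both motifs, once each. Over all 32851 windows of the table, 32.7% held GGGCGG and 17.8% held TGACG on either strand. Neither TGGGAA, the core letters bound by the Notch effector RBPJ (21.6% of windows), nor TATAAA (12.4%) was found in these 4 windows. The windows differed in composition, with 56.4% G and C and 7 CG pairs in Gja5, 61.2% and 9 in Gja4, and 69.2% and 18 in Gjb2, against a median of 52.4% G and C over all windows. A match of letters is a description and does not show a bound site.

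The first comparison set each connexin against the background of its own array. Gja5, Gja4, Gjc1 and Gjb2 were above it, and Gjd2 was not. That is 4 of 5 genes, where 37.3% of all 19938 genes passed the same test (limma, one-sided, Benjamini-Hochberg over all genes, threshold 0.05). The genes had been chosen with earlier results known, so the share itself shows nothing about connexins. The median height of the 5 genes was 1.81, and that of all genes tested -0.01.

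Gja5 encodes the connexin of the renin cell and of arteriolar endothelium. Its log2 signal was 11.70, 11.25 and 11.07 in replicates 2, 4 and 5. All 3 arrays lay at least 4.57 above their own background levels, with replicate 2 the highest. The mean height was 5.00 (SD of the signal 0.32, n = 3; 95% interval of the height 4.45 to 5.55; limma adjusted p = 1.03e-06). It was also the only one of the 5 that passed against every background level tried, including the highest one, set by keratin-associated protein genes (height 2.67, limma adjusted p = 7.67e-08; 3.56% of all genes passed there).

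Gja4 encodes connexin 37, a partner of connexin 40 in arteriolar endothelium that is also found in renin cells. Its log2 signal was 9.12 in replicate 2, 7.80 in replicate 4 and 7.53 in replicate 5. Replicate 2 stood apart, 1.45 above the mean of the other arrays, which differed from each other by 0.27. The mean height was 1.81 (SD of the signal 0.85, n = 3; 95% interval 0.98 to 2.63; limma adjusted p = 0.00213). Without replicate 2 the height was 1.26 and the gene still passed (limma adjusted p = 0.00745), as did 30.3% of all genes.

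Gjc1 encodes connexin 45, which couples vascular smooth muscle and mesangial cells. Its log2 signal was 8.23, 7.07 and 7.94 in replicates 2, 4 and 5. Here replicate 4 was the low one, with a difference of -1.01 from the mean of the others, and it was 0.76 above its own background level. The mean height was 1.41 (SD of the signal 0.60, n = 3; 95% interval 0.78 to 2.04; limma adjusted p = 0.00192).

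Gjb2 encodes connexin 26, a beta-group connexin of epithelia. Its log2 signal was 9.46 in replicate 2, 8.93 in replicate 4 and 7.84 in replicate 5. Replicate 5 was low, with a difference of -1.36 from the mean of the others, and still 1.33 above its background level. The mean height was 2.40 (SD of the signal 0.83, n = 3; 95% interval 1.56 to 3.25; limma adjusted p = 0.000533).

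Gjd2 encodes connexin 36, the channel of electrical synapses. Its log2 signal was 5.23, 5.00 and 5.74 in replicates 2, 4 and 5. All 3 values were under the background level of their array, and the mean height was -1.02 (SD of the signal 0.38, n = 3; 95% interval -1.31 to -0.73). None of 8 measured neuronal markers was above background either, with limma's adjusted p or with an unadjusted p under 0.05 (0 genes each). A signal under this level bounds the transcript and does not show that it is absent.

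**Figure D1:**
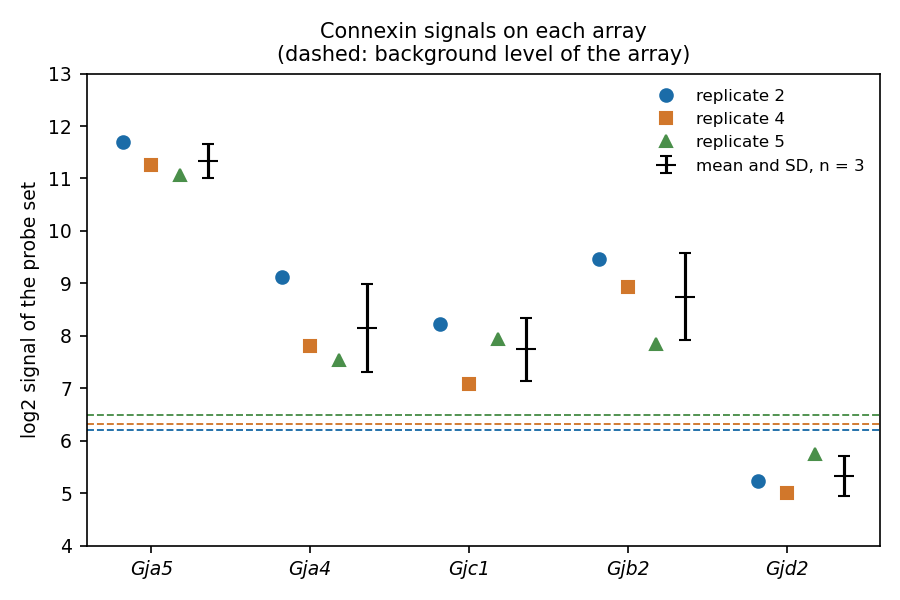
Log2 signal (vertical axis) of the 5 connexin probe sets on the 3 arrays, with the mean and SD (n = 3) in black and each array's background level as a dashed line in the array's colour. Gja5 lies between 11.07 and 11.70 on all arrays, Gja4, Gjc1 and Gjb2 are spread over 1.16 to 1.62 log2 units above the lines, and Gjd2 lies under them.

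The calls of Gja4, Gjc1 and Gjb2 depended on the background level. Gjb2 lost its call only at the keratin-associated level (height 0.08), where 3.56% of all genes passed. Gja4 and Gjc1 did not pass there either (heights -0.52 and -0.92). With the level raised to the 99th percentile, where 16.6% of all genes passed, Gja5 and Gjb2 did (limma adjusted p = 1.32e-05 and 0.0148). Gja4 had a height of 0.94 (limma adjusted p = 0.0868) and Gjc1 one of 0.54 (limma adjusted p = 0.177). With a level from vomeronasal receptor genes, where 67.3% of genes passed, the same 4 genes were called and Gjd2 stayed under the level (height -0.12). A probe set's signal also depends on how well its probes bind, so a larger height of one connexin does not mean that its transcript was more abundant.

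**Figure D2:**
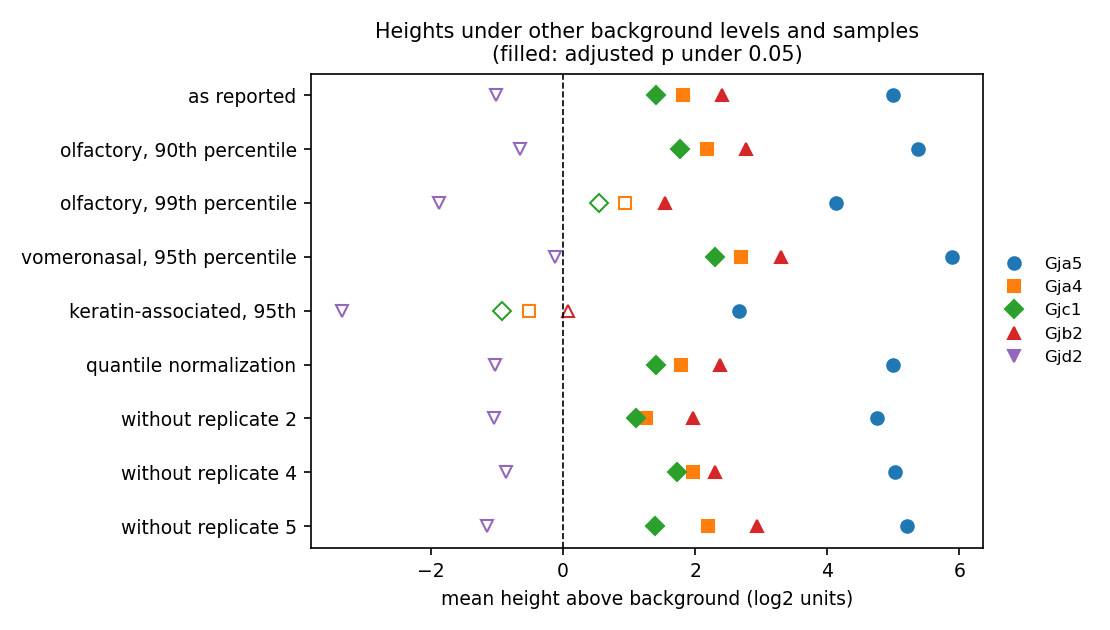
Mean height above background in log2 units (horizontal axis) of the 5 connexin genes under 9 settings (rows), filled where limma's adjusted p was under 0.05. Gja5 is filled in every row, Gja4 and Gjc1 are open at the 99th percentile, and Gja4, Gjc1 and Gjb2 are open with the keratin-associated level.

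The other members of the family were mostly under background. Of 11 further connexin genes measured, 2 passed. Gjd3, a delta-group connexin gene of the heart's conduction tissue, had log2 signals of 7.42, 7.32 and 7.53 in replicates 2, 4 and 5 (height 1.08, limma adjusted p = 0.00112). Gjb1, the connexin 32 gene of liver and Schwann cells, had 6.69, 7.25 and 7.01 (height 0.64, limma adjusted p = 0.0114), and lost its call when replicate 4 was left out (limma adjusted p = 0.109; 32.1% of all genes passed there). The arrays were within 0.22 of each other for Gjd3, and for Gjb1 replicate 4 was the highest, the reverse of Gjc1. Neither passed with the level at the 99th percentile (heights 0.22 for Gjd3 and -0.22 for Gjb1).

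Gja1 encodes connexin 43, the most widespread connexin of the body. It had log2 signals of 7.26, 7.03 and 6.08 in replicates 2, 4 and 5. The first 2 of these were above their background levels and the last was not. Its mean height of 0.45 had a 95% interval from -0.18 to 1.08 and did not pass (limma adjusted p = 0.164), but without replicate 5 it did (height 0.89, limma adjusted p = 0.00389; 39.2% of all genes passed). It also passed with the level at the 90th percentile (height 0.82, limma adjusted p = 0.0184; 50% of all genes passed). With the vomeronasal level the height was 1.34 (limma adjusted p = 0.000421; 67.3% passed), and at the 99th percentile it was -0.41. At this precision, and with this dependence on the level, it could not be settled whether Gja1 was above background. Gja3, a lens connexin gene, had a height of 0.24 (95% interval -0.13 to 0.62) and did not pass. It too passed with the 90th percentile and vomeronasal levels (limma adjusted p = 0.00652 and 0.00016). The remaining 7 (Gja6, Gja10, Gjb5, Gjb6, Gjc3, Gjd4 and Gje1) were under the level on all arrays, with mean heights from -1.77 to -0.42. Over the 16 measured connexins together 6 passed (37.5%), close to the 37.3% of all genes.

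Gjb2 has family members as direct neighbours on the chromosome. In RefSeq's GRCm38.p6 annotation Gja3, Gjb2 and Gjb6 lie side by side on chromosome 14, with no other protein-coding gene between Gjb2 and either of them. Each was read against background only: Gjb2 passed, and Gja3 (height 0.24) and Gjb6, the connexin 30 gene (height -0.74), did not.

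Pannexins form channels to the outside of the cell without docking into gap junctions. Of the 3 genes, Panx2 passed narrowly (log2 signals 6.88, 7.02 and 6.69; height 0.52; limma adjusted p = 0.0271) and did not pass when replicate 2 or replicate 4 was left out (limma adjusted p = 0.127 and 0.154) or with the 99th percentile as the level (height -0.34). Panx1, the widespread member, had a height of 0.08 (95% interval -0.25 to 0.41) and Panx3 one of -1.13.

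**Figure D3:**
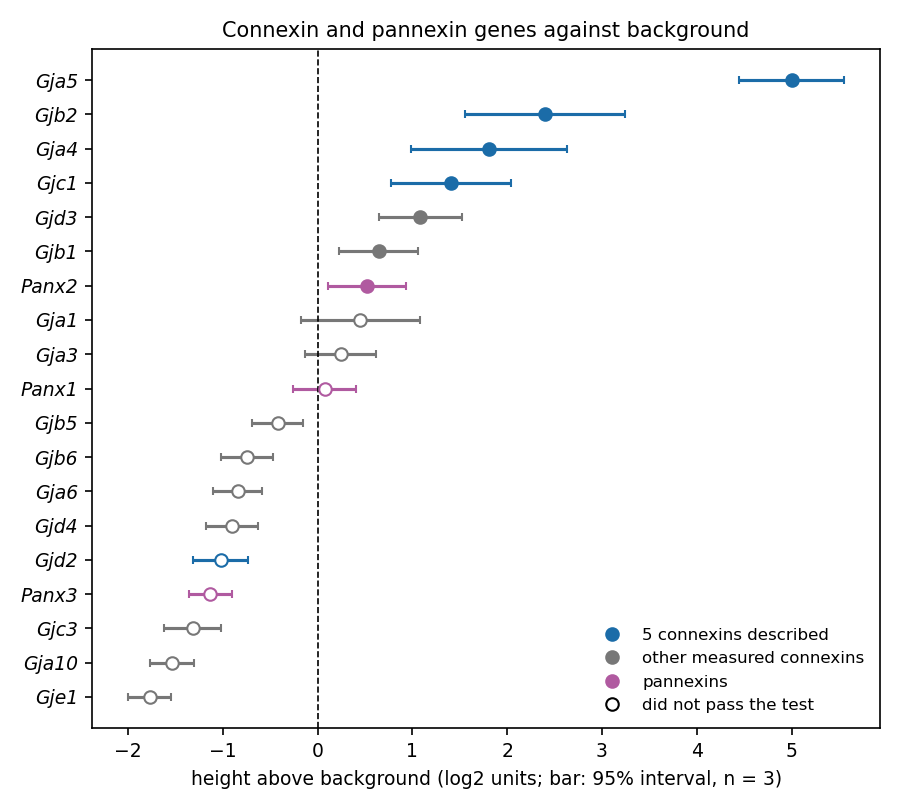
Mean height above background in log2 units (horizontal axis) with its 95% interval (n = 3) for 19 connexin and pannexin genes, filled where limma's adjusted p was under 0.05. Genes are sorted by height, which does not rank abundance; 4 of the 5 genes described are filled, and of the rest Gjd3, Gjb1 and Panx2 are.

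Proteins that bind connexins or move and modify them were represented by 13 genes, and 8 passed, where 37.3% of all genes did (6 with the level at the 99th percentile, where 16.6% of all genes did). Of those that passed, 4 were named by their height, which does not rank abundance: Nedd4, a ubiquitin ligase that acts on connexin 43 (4.77), Cav1, caveolin 1 (3.09), Ywhaq, a 14-3-3 adaptor (3.07), and Ctnnb1, beta-catenin (3.03). Tjp1, the scaffold ZO-1 that binds connexin tails, had log2 signals of 9.53, 8.86 and 9.05 (height 2.81, limma adjusted p = 4.4e-05), highest in replicate 2. The others that passed were Csnk1d (2.11), Dbn1 (0.97) and Tjp3 (0.43), the last of which lost its call without any 1 of the 3 arrays (limma adjusted p = 0.0818 to 0.117). Cnst, a connexin-sorting receptor, had a height of -0.31, and Ccn3 (-0.71), Src (0.31), Cdh2 (-0.41) and Sgsm3 (0.08) did not pass either.

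How far the connexins differed between the samples was asked next. No test is possible between single arrays, so differences are given beside those of all genes above background. The highest and lowest array were more than 1 log2 unit apart for Gjb2 (1.62), Gja4 (1.59) and Gjc1 (1.16), and not for Gja5 (0.63). Of all 7437 genes above background 13.7% exceeded 1 log2 unit. A larger difference than that of Gjb2 was seen in 1.71% of them, than that of Gja4 in 1.94%, than that of Gjc1 in 8.43% and than that of Gja5 in 38.2%.

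Gja5, Gja4, Gjc1 and Gjb2 had their highest signal in replicate 2, which was the highest array for 43.8% of the genes above background; the other connexins that passed were highest in replicate 5 (Gjd3) and replicate 4 (Gjb1). The lowest array was replicate 5 for Gja5, Gja4 and Gjb2, as for 52.8% of those genes, and replicate 4 for Gjc1, as for 26.1%. For Gja5 the lower pair was not ordered under quantile normalization, which gave 11.20 and 11.21 in replicates 4 and 5. Gjd2 was highest in replicate 5, where the background level was highest too; the marker furthest above the other arrays there was Trpv5, a calcium channel gene of the distal tubule, with a difference of 0.84.

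Markers of other cells moved with some of these differences. Of 16 measured endothelial markers 14 were highest in replicate 2, and their summed signal (log2 of the sum of linear signals) was 12.24, 11.12 and 11.08 in replicates 2, 4 and 5. The marker furthest above the other arrays there was Ptprb, an endothelial receptor phosphatase, with log2 signals of 10.16, 7.36 and 8.16. Of 9 arterial endothelial markers 8 were highest in replicate 2, with summed signals of 11.55, 10.90 and 10.92, and 3 of the 9 (Sox17, Bmx and Gkn3) were under the level on all arrays. Gja4 had the same order of arrays as the endothelial sum, and so had Gja5, Gjb2 and the proximal tubule sum given below. The endothelial median was lowest in replicate 4 (0.36, -0.25 and -0.19 from each gene's mean). Of the endothelial markers Sox17 was under the level on all 3 arrays, and Kdr, Tek, Tie1, Eng, Robo4 and Vwf had positive heights but did not pass. The part of endothelial RNA in the Gja4 difference was not tested.

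Of 16 proximal tubule markers 12 were lowest in replicate 5, and of 8 thick ascending limb markers 7 were. Their summed signals were 15.05, 14.98 and 14.64 for the proximal tubule, and 13.43, 13.78 and 12.87 for the thick ascending limb, in replicates 2, 4 and 5, and no marker of either list was under the level on all arrays. Fewer were lowest in replicate 5 in the distal and connecting tubule (1 of 7), principal cell (3 of 9) and intercalated cell lists (2 of 8). Principal and intercalated cell markers were lowest mostly in replicate 2 (6 of 9 and 5 of 8). Gjb2 was lowest in replicate 5, as were Gja5, Gja4 and 52.8% of all genes above background, and the part of tubule RNA in that was not tested. Without replicate 5 its height was 2.94 (limma adjusted p = 1.47e-05). In replicate 5 Gjb2 was -0.91 from its mean as deposited and -0.76 under quantile normalization. The median differences there went from -0.46 to -0.3 for proximal tubule and from -0.38 to -0.21 for thick ascending limb markers.

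Smooth muscle markers were lowest in replicate 4 in 8 of 12 cases, as were Gjc1 and 26.1% of all genes above background. Arterial endothelial markers were lowest there in 6 of 9 cases and endothelial markers in 7 of 16. The summed signals of the smooth muscle markers were 14.67, 14.38 and 14.54 in replicates 2, 4 and 5. Single markers of that list differed by up to 0.66 between arrays (Myh11), and Gjc1 by 1.16. Of 10 pericyte and mesangial markers 3 were lowest in replicate 4 and 6 in replicate 5, with summed signals of 12.59, 12.26 and 12.12. The 7 renin cell markers had summed signals of 13.52, 13.28 and 13.43. Gja5, itself a renin cell gene, was lowest in replicate 5, and of these 7 markers 3 were lowest there and 4 in replicate 4. Gja5 differed by 0.63 between the highest and lowest array, about as much as the marker Agtr1a (0.64), an angiotensin II receptor gene. Agtr1a, lowest in replicate 4, had the largest difference of the 7 markers, and the others had 0.15 to 0.51. The part of these cells in the differences of Gjc1 and Gja5 was not tested.

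**Figure D4:**
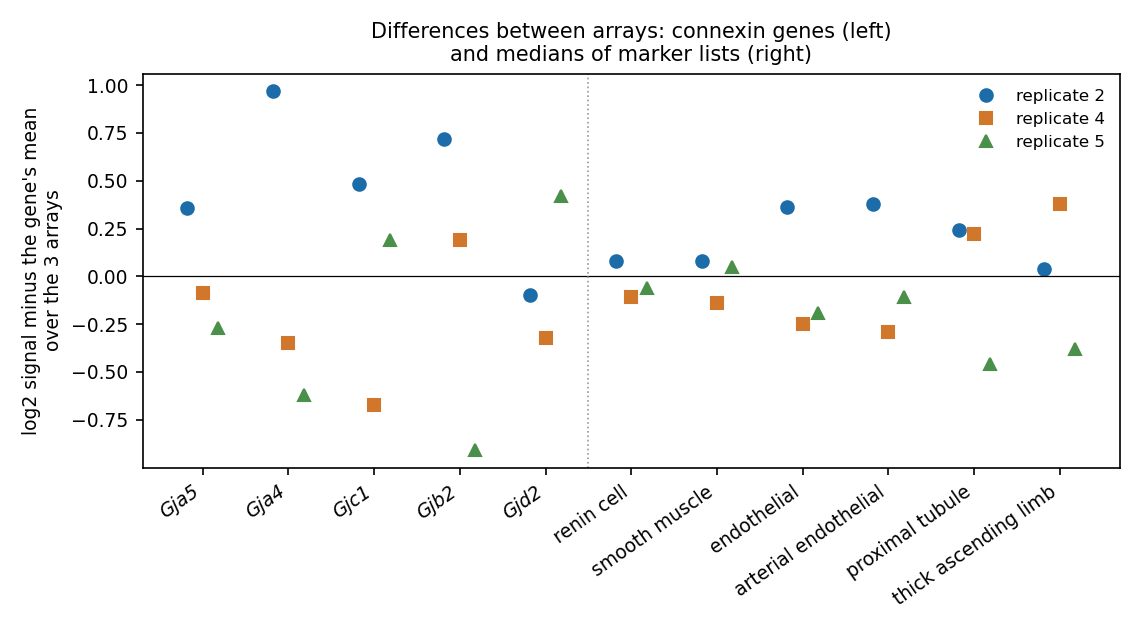
Log2 signal minus the gene's own mean over the 3 arrays (vertical axis) for the 5 connexin genes, and the median of that quantity over the measured genes of 6 marker lists, with 1 point for each array. Highest in replicate 2 are Gja4 (0.97), Gjb2 (0.72), Gjc1 (0.48), Gja5 (0.36) and the endothelial medians (0.36 and 0.38). So are the renin cell (0.08), smooth muscle (0.08) and proximal tubule (0.24) medians. Lowest in replicate 5 are Gjb2 (-0.91), Gja4 (-0.62), Gja5 (-0.27) and the tubule medians (-0.46 and -0.38).

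The genes whose differences between the arrays were most like those of Gja5, Gja4, Gjc1 and Gjb2 were found by Euclidean distance between signals centred on each gene's mean, over 3 arrays and 7083 named genes above background. With 3 arrays many genes are alike by this measure, all values come from the same libraries, and nothing follows about shared function. Nearest to Gja4 were Peli2, Pdpr and Peak1 (distances 0.027, 0.067 and 0.070 log2 units), and 6 genes lay within 0.1. Nearest to Gjc1 were Vgll3, Gcsh and Usp6nl (0.011, 0.019 and 0.046), with 6 genes within 0.1. Nearest to Gjb2 were Hmgn3, Papss2 and Timd2 (0.045, 0.056 and 0.059), with 10 genes within 0.1. Gja5, which varied least, had 177 genes within 0.1, and Asap2, Slc39a7 and Dcaf13 were nearest (0.005, 0.008 and 0.018). None of these connexins lay within 0.1 of another. The distance was 0.66 between Gja4 and Gjb2, 1.0 between Gja4 and Gjc1, and 1.42 between Gjc1 and Gjb2. Between Gja5 and the others it was 0.75 (Gja4), 0.75 (Gjc1) and 0.78 (Gjb2). The distance also depends on how far each gene varied, so genes with the same order of arrays, such as Gja4 and Gja5, can be far apart.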

How the data were processed

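The authors deposited 1 log2 signal per probe set for each of the 3 arrays. The submitters' processing notes name Affymetrix Expression Console. Its version, summary method and normalization were not stated in any source at hand, and the log2 base was inferred from values of 2.21 to 13.96. The platform's annotation gave 21789 probe sets 1 symbol each, and the brightest probe set stood for a gene. Heights above the level set by olfactory receptor genes entered an intercept-only fit in limma 3.58.1 (R 4.3.3; eBayes with a trend), tested one-sided with Benjamini-Hochberg adjustment over 19938 genes. The number of arrays, 3, limits the precision. On simulated arrays of 19938 genes the test called 76% of genes planted 0.5 above the level, 96% of those planted 1 above it and 0.121% of genes at or under it. The last kept their own means, so that share is not the error rate of a gene at the level. Planted genes were picked at random and kept their own SD, with independent noise. The shares are averages over genes and do not give the rates for Gja4, Gjb2 or Gjc1. The genes and lists were chosen with earlier results of these data known. The text names every measured connexin and pannexin, the 4 highest and all failing partner genes, the 3 genes nearest to Gja5, Gja4, Gjc1 and Gjb2, and the marker furthest above the other arrays. It adds the other partners that passed the endothelial markers that did not, and Agtr1a, Myh11 and the arterial markers under the level, chosen after their values were seen. Alternatives were other levels and families, normalizations, a dim-gene filter, probe set rules, no trend, and leaving out each array. Some listed genes are not reported here.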

Additional observations from a re-analysis of the deposited data

How the results depend on the processing

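The count of 4 connexin genes above background, and the same count of probe sets, was 2 with the olfactory receptor level at its 99th percentile and 1 with a level from keratin-associated protein genes. It was 4 under the other alternatives run, including without each replicate. At the 99th percentile the heights were 0.94 for Gja4 and 0.54 for Gjc1, without a call. With the keratin-associated level they were -0.52 for Gja4, -0.92 for Gjc1 and 0.08 for Gjb2, so that the first 2 turned negative; the level itself was higher there (8.41, 8.44 and 9.15), and 10 of its 44 genes passed the usual test. Over all genes the count moved from 7437 to 3303, 13410 and 709 with the 99th percentile, vomeronasal and keratin-associated levels. Leaving out a replicate gave differences between arrays of 0.27 to 1.59 for Gja4, 0.18 to 0.63 for Gja5, 0.29 to 1.16 for Gjc1, 0.53 to 1.62 for Gjb2 and 0.23 to 0.74 for Gjd2. They fell most without replicate 2 for Gja4 and Gja5, without replicate 4 for Gjc1 and without replicate 5 for Gjb2 and Gjd2, by construction, since that array held an extreme. The filter on dim genes removed Gjd2 from the test. No paired analysis was possible because the series has 1 group. With 3 arrays and 1 probe set per gene, errors shared by a probe set on all arrays are not seen.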
